A study of Mus musculus with 2 samples.

Results

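Radial-glia-rich spots were the 150 spots with the highest radial glia score, chosen by RNA, out of 1832 eligible spots with at least 2000 gene UMIs and 1993 spots in the matrix. The comparison was the 150 spots with the lowest score. The score was the share of a spot's gene UMIs that came from 12 genes, namely Slc1a3, Fabp7, Vim, Hes5, Hes1, Pax6, Sox9, Ptprz1, Sox2, Tnc, Ttyh1 and Ednrb. Both groups came from the same tissue, the brain of an E18.5 C57BL/6 mouse embryo carrying a homozygous Ctcf mutation, CTCF-R567W, made with CRISPR/Cas9. SPARC-seq was read out as 1 RNA library and 1 chromatin accessibility library that share their barcodes, without replicates. No wild-type spots were analysed here, so every value below describes variation inside 1 mutant brain sample. A spot can hold several cells, or part of one, and its position in the tissue was not used.

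Radial glia are the neural stem cells of the embryonic brain. They line the ventricles, divide there, give rise to neurons directly or through intermediate progenitors, and turn to making astrocytes and oligodendrocyte precursors late in gestation. Notch signalling keeps them undifferentiated: a ligand on a neighbouring cell releases the Notch intracellular domain, which binds the DNA-binding protein RBPJ and switches on Hes1 and Hes5, repressors of neuronal genes. Sox2, Sox9 and Pax6 are transcription factors of neural progenitors. Slc1a3 (a glutamate transporter), Fabp7 (a fatty acid carrier), Vim (an intermediate filament protein), Ptprz1 (a receptor phosphatase), Tnc (a matrix glycoprotein), Ttyh1 (a membrane protein) and Ednrb (an endothelin receptor) are made by radial glia and, most of them, by astrocytes as well.

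The scores formed a continuous distribution without a gap at either edge, and the groups are its ends. The score was 0 at the lowest, 1243 score UMIs per 1000000 gene UMIs (CPM) at the median and 4915 at the highest of the 1832 spots. In the rich spots it ran from 2239 to 4915 with a median of 2548, and in the poor spots from 0 to 502 with a median of 378. The last spot inside the rich group had 2238.8 CPM and the first outside had 2236.5. The last spot inside the poor group had 502.01 and the first outside had 502.51. Few molecules stood behind a score. A rich spot held 5 to 30 score UMIs with a median of 10, a poor spot 0 to 4 with a median of 1, and 19 poor spots held none. Over all eligible spots the variance of the score UMIs was 1.42 times that of counting alone, given each spot's total.

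**Figure D1:**
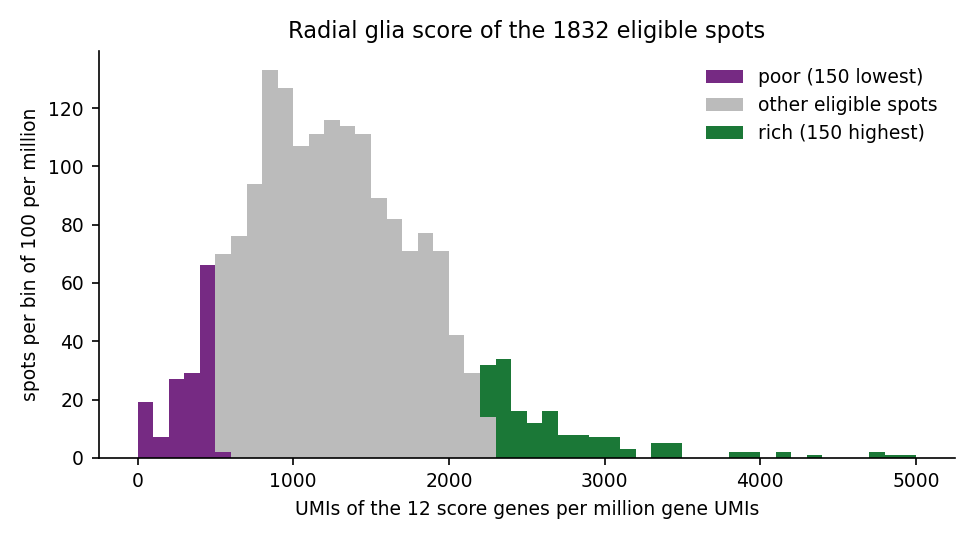
Number of eligible spots (y axis, in bins of 100 units of the score) by radial glia score (x axis, CPM of the 12 score genes), with the 150 rich and 150 poor spots coloured. Most spots lie between the groups, the rich group starting at 2239 and the poor group ending at 502 CPM.

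The groups were similar in depth. Rich spots held 2013 to 8950 gene UMIs with a median of 3657, and poor spots 2002 to 9761 with a median of 3938.5, against 4349.5 over all eligible spots. Median accessibility fragments were 19906 in rich and 19837 in poor spots. TSS enrichment, the density of insertions at transcription start sites over that of their flanks, was 9.98 and 9.68, and mitochondrial genes gave 0.750% and 0.737% of UMIs. The groups differed in their barcodes. Each barcode is made of 2 segments, and 15 of the 150 rich spots carried 1 second segment, which 41 eligible spots and 2 poor spots carried. Values without that segment are given where they matter. Intervals given after a ratio are exact 95% intervals that cover counting error only. Spots of 1 library are not replicates, so the groups were not tested against each other.

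Among the regions near score genes that held more accessibility in rich spots were the Hes5 promoter, a region 12367 bp upstream of Hes5 and a region inside Ttyh1. Their sequences are given before the values. The Fabp7 promoter is shown because it had the highest ratio of the score gene promoters. The promoters are RefSeq sequences of GRCm38.p6, the 250 bases before the start site on the plus strand, at chr4:154960673-154960922 for Hes5 and chr10:57784673-57784922 for Fabp7. The other pair are the middle 200 bases of deposited peaks on the plus strand of GRCm38, at chr4:154948456-154948655 and chr7:4123735-4123934. The first of these lies in no gene of GENCODE release M21, and the second lies in an intron of Ttyh1. Capitals mark matches to TGGGAA, the core of the RBPJ motif, or its reverse complement TTCCCA.
Hes5 promoter: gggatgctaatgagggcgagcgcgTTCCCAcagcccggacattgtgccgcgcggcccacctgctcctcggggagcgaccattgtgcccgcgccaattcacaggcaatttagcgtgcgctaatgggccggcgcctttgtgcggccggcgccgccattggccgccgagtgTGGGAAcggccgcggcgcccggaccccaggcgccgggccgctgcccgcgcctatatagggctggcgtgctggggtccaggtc
Fabp7 promoter: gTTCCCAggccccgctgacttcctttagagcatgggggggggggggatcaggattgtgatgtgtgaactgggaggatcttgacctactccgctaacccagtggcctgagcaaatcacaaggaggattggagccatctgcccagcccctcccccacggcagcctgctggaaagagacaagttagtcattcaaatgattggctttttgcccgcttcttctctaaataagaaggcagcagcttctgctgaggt
Hes5 upstream peak: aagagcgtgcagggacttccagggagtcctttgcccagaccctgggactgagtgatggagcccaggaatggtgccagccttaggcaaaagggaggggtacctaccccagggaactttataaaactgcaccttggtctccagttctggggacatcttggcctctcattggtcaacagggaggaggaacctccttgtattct
Ttyh1 intronic peak: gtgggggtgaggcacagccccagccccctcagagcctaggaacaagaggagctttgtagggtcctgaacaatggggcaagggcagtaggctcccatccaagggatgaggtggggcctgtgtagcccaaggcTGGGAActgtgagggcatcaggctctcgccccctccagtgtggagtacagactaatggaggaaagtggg

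The Hes5 promoter held 2 matches, at 226 and 82 bases before the start, and the Fabp7 promoter held 1. The intronic Ttyh1 stretch held 1, and the Hes5 upstream stretch held none, with 1 elsewhere in its peak. The core was present in 21.6% of 32817 promoters of the same length, counting both strands. Of the 12 score genes 10 had a promoter sequence, and 3 of these, Hes5, Fabp7 and Tnc, held the core. Of the radial glia genes outside the score, described below, 7 of 19 held it, and of the astrocyte genes 5 of 11. Some genes have several promoters, and counted by promoter, as the background is, the shares were 4 of 12, 8 of 25 and 5 of 14. A match is a run of letters and does not show a bound site.

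The RNA of the score genes chose the groups, so its difference is a description. The 12 genes together gave 1612 UMIs in rich and 208 in poor spots, or 2741 and 339 CPM. Each of the 12 was higher in rich spots, from a ratio of 4.39 for Sox9 with 21 against 5 UMIs to 23.0 for Ttyh1 with 132 against 6. Ptprz1 gave the most UMIs, 390 against 53.

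When a gene was left out of the score and read in the spots that the other 11 genes chose, most of that difference was gone. This check was added after the data were seen. The left-out ratio ranged from 0.644 to 2.54 over the 12 genes, with a median of 1.39. It was above 1 for 10 genes, with an interval above 1 for 7. Tnc was read at 109 against 61 UMIs, a ratio of 1.92 (1.39 to 2.67), and Ttyh1 at 79 against 47, a ratio of 1.77 (1.22 to 2.60). Slc1a3 gave 157 against 113 UMIs, a ratio of 1.46 (1.14 to 1.87). Fabp7 and Ptprz1, the other abundant genes with an interval above 1, stood at 1.32 (1.04 to 1.68) and 1.28 (1.06 to 1.55). Hes5 with 26 against 12 UMIs and Ednrb with 22 against 9 completed the 7.

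Vim did not go with the other score genes. It was read at 113 UMIs in rich and 128 in poor spots when left out, a ratio of 0.972 (0.748 to 1.26). Vim is also made by fibroblasts, endothelial cells and other mesenchymal cells. Pax6 was read at 33 UMIs in each group, and Hes1, which many cell types make, at 13 against 21, a ratio of 0.644 (0.296 to 1.35). The intervals of Sox9 and Sox2 held 1 as well.

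Splitting the score gave a similar size. Where the 6 markers Slc1a3, Fabp7, Vim, Hes5, Sox9 and Ptprz1 chose the spots, the other 6 genes gave 260 UMIs in rich and 194 in poor spots, a ratio of 1.52 (1.25 to 1.84). Where the other 6 chose the spots, the markers gave 714 and 600 UMIs, a ratio of 1.24 (1.11 to 1.38).

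**Figure D2:**
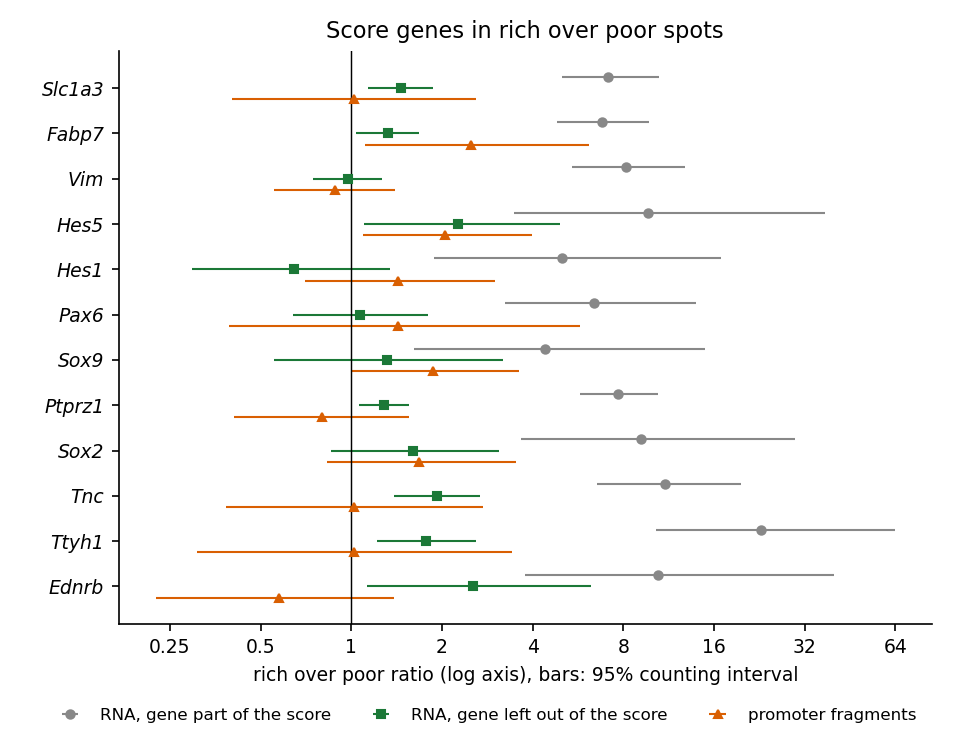
Rich over poor ratio (x axis, log scale) of each score gene (y axis) for RNA in the main groups, for RNA in spots chosen by the other 11 genes, and for fragments within 1 kb of the TSS; bars are 95% counting intervals. RNA ratios of 4.39 to 23.0 in the main groups became 0.644 to 2.54 when the gene was left out.

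RNA outside the score showed a modest glial difference. Over 5354 genes outside the score with at least 50 UMIs in both groups together, 191 (3.57%) were at least 1.5 times higher in rich spots and 175 (3.27%) were lower by the same fold, with a median ratio of 1.01. The radial glia list outside the score and the astrocyte list were higher in rich spots, and the neuronal, cell cycle and vascular lists stood closer to 1 in the groups as chosen.

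The 20 radial glia genes outside the score gave 1309 UMIs in rich and 1051 in poor spots, or 2226 and 1711 CPM, a ratio of 1.30 (1.20 to 1.41). The level over all eligible spots was 1767 CPM, close to that of the poor spots. Single spots overlapped widely. Rich spots ran from 348 to 5429 CPM with a median of 2015, and poor spots from 220 to 4200 with a median of 1706. Without the second segment that held 15 rich spots the ratio was 1.19 (1.09 to 1.30). Of the 10 members with at least 50 UMIs, 4 were past 1.5-fold higher and none lower, with a median ratio of 1.25.

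Those 4 were Dbi, Mfge8, Phgdh and Aldoc. Dbi, which binds acyl-CoA and is abundant in glia, gave 438 against 278 UMIs, a ratio of 1.65 (1.41 to 1.92). Mfge8, a secreted bridging protein, gave 135 against 83, a ratio of 1.70 (1.28 to 2.26). Phgdh, the first enzyme of serine synthesis, gave 77 against 45, a ratio of 1.79 (1.22 to 2.64). Aldoc, a glycolytic aldolase, gave 75 against 51, a ratio of 1.54 (1.06 to 2.24). Other members stood near 1: Id4, an inhibitor of bHLH factors, gave 161 against 170 UMIs, the receptor Fgfr2 119 against 133, and Nes, which encodes the progenitor filament protein nestin, 69 against 68. Among sparse members, the receptor Fgfr3 gave 22 against 9, a ratio of 2.55 (1.13 to 6.30), and Gas1, a Hedgehog co-receptor, 4 against 18, a ratio of 0.232 (0.0572 to 0.705).

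The astrocyte list gave 997 UMIs in rich and 740 in poor spots, or 1695 and 1204 CPM, a ratio of 1.41 (1.28 to 1.55). The level over all eligible spots was 1285 CPM. Rich spots ran from 0 to 4080 CPM with a median of 1667, poor spots from 0 to 3613 with a median of 1188, and 108 of the 150 rich spots lay above the poor median. Apoe, the lipid carrier of astrocytes and microglia, gave 464 against 295 UMIs, a ratio of 1.64 (1.42 to 1.91), and made up much of the list. The chaperone Clu gave 44 against 27 UMIs, a ratio of 1.70 (1.03 to 2.86), and the bicarbonate transporter Slc4a4 66 against 46, a ratio of 1.499 (1.01 to 2.23). The glutamate transporter Slc1a2 gave 92 against 90, with an interval that held 1. Gfap, the filament of mature astrocytes, gave 1 against 6 UMIs and Aqp4, the water channel, 8 against 9. Microglia, which also make Apoe, gave 111 UMIs for their list in each group, a ratio of 1.04 (0.796 to 1.37).

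Oligodendrocyte precursor genes gave 571 against 524 UMIs, a ratio of 1.14 (1.01 to 1.28). Most of these UMIs came from Pcdh15 with 315 against 291 and Lhfpl3 with 171 against 152. The defining genes were sparse, with 20 against 18 UMIs for the receptor Pdgfra and 12 against 10 for the transcription factor Olig2. Both of the abundant members had intervals that held 1, and so had the list in most alternatives, such as 100 or 300 spots or the 6 markers as score.

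Notch pathway genes other than the score genes Hes1 and Hes5 gave 695 against 667 UMIs, a ratio of 1.09 (0.978 to 1.21), with an interval above 1 for 100 spots, a minimum of 1000 UMIs and equal weights. None of the 10 members with at least 50 UMIs was past 1.5-fold in either direction. The receptor Notch1 gave 37 against 29 UMIs and the DNA-binding partner Rbpj 41 against 41. Ligands were sparse, with 1 against 0 for Dll1 and 16 against 20 for Jag2. The coactivators Maml2 and Maml3 gave 165 against 158 and 136 against 144.

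For cycling genes the intervals of both lists held 1 in the groups as chosen. The 12 S phase genes gave 97 UMIs in rich and 108 in poor spots, a ratio of 0.938 (0.706 to 1.25). The 16 genes of G2 and mitosis gave 159 against 139, a ratio of 1.20 (0.946 to 1.51), which became 1.36 (1.07 to 1.72) in spots chosen by the 6 markers and 1.24 (1.001 to 1.54) with a minimum of 3000 UMIs, but 1.02 (0.796 to 1.31) with equal weights and 1.099 (0.871 to 1.39) with the other 6 genes. Mki67, the proliferation antigen, gave 38 against 29 UMIs, the topoisomerase Top2a 23 against 26, and the replicative helicase subunits Mcm5 and Mcm6 15 against 11 and 13 against 17. The intervals leave room for an S phase level between 0.706 and 1.25 times, and a G2 and mitosis level between 0.946 and 1.51 times, that of poor spots. No S phase UMI was seen in 80 rich and 73 poor spots, and no G2 or mitosis UMI in 63 and 61. Intermediate progenitor genes gave 63 against 58, a ratio of 1.13 (0.782 to 1.65), with 24 against 22 for Hes6, which antagonises Hes1. Their ratio was 1.67 (1.17 to 2.39) in spots with few UMIs of adjacent tissue. That name stands here for muscle, connective tissue, pituitary, epithelium and erythroid genes.

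Neuronal RNA was near equal. Genes of immature neurons gave 3809 UMIs in rich and 4262 in poor spots, a ratio of 0.934 (0.894 to 0.976), which stood at 1.02 when Vim was left out of the score. Sox11, a transcription factor of new neurons, gave 467 against 575 UMIs, a ratio of 0.849 (0.749 to 0.960), and the RNA-binding protein Elavl3 788 against 882. Synaptic genes gave 3882 against 4224, a ratio of 0.960 (0.919 to 1.003). The NMDA receptor subunit Grin2b gave 588 against 705, a ratio of 0.871 (0.780 to 0.974). GABAergic genes gave 248 against 250 UMIs and glutamatergic genes 527 against 504, with intervals that held 1, though for glutamatergic genes not with 100 spots, without Vim or with the 6 markers. Both groups thus held similar neuronal RNA: the median share of the synaptic list was 6513 CPM in rich and 6902 in poor spots, and the ranges, 2495 to 11079 and 2668 to 12393, overlapped nearly whole.

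**Figure D3:**
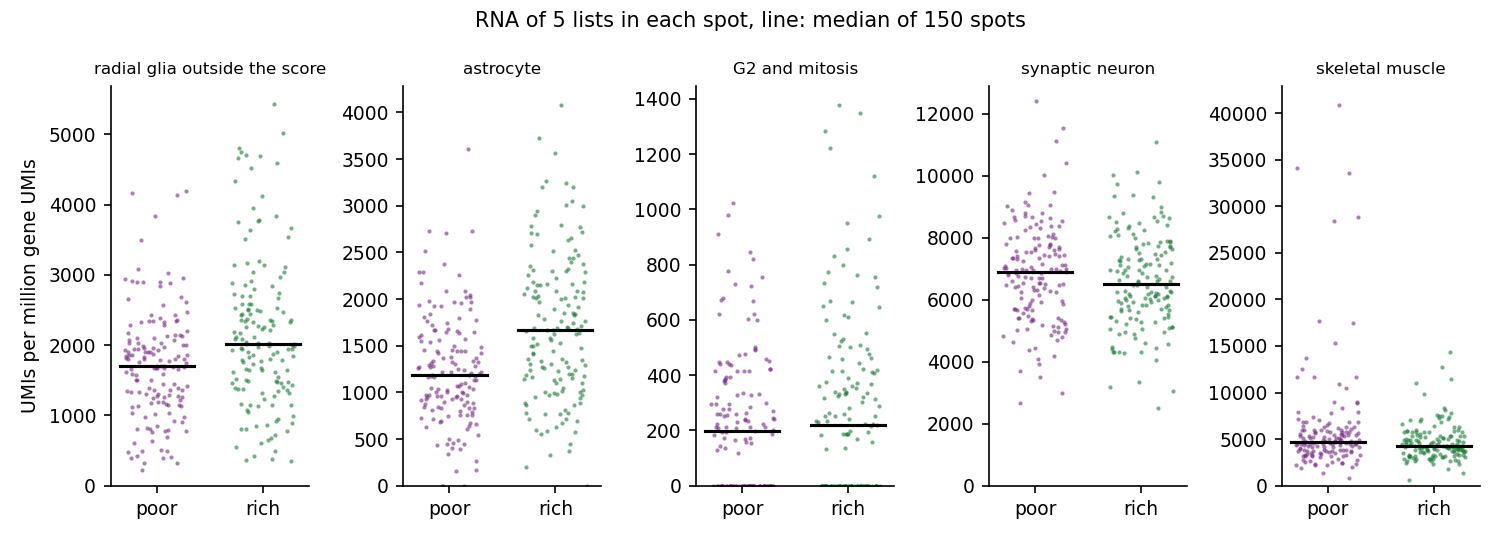
RNA level in CPM (y axis) of 5 gene lists in each of the 150 poor and 150 rich spots (x axis); points are spots and lines are medians. The groups overlap for every list, with medians of 1188 and 1667 for astrocyte genes as the widest relative gap and the highest poor spot at 40907 for skeletal muscle.

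RNA of several tissues other than brain was lower in rich spots as chosen. The name adjacent tissue rests on the genes alone, since position was not used. No eligible spot was without UMIs of the muscle or the erythroid list, and where this RNA came from was not tested. The skeletal muscle list gave 2798 UMIs in rich and 3887 in poor spots, a ratio of 0.752, and all 12 members had a ratio below 1, where 51.4% of all genes tested were above 1. The median spot differed less, with 4260 against 4717 CPM, and the highest poor spot reached 40907 against 14317 in the rich group. Spot to spot variance of this list was 18.1 times that of counting, so its counting interval is far too narrow to use. Erythroid genes gave 3606 against 4845 UMIs with variance 18.7 times counting, connective tissue 816 against 1012 with 7.28 times, and pituitary genes 75 against 184 with 12.8 times. In spots chosen among those with few UMIs of muscle, connective tissue, pituitary, epithelium and erythroid genes, a choice that itself brings these 5 lists close together, radial glia genes outside the score stood at 1.22 (1.13 to 1.32) and astrocyte genes at 1.45 (1.32 to 1.59). Endothelial, mural and Schwann cell lists gave ratios of 0.960, 1.01 and 1.04, each with 1 inside its interval, and mural genes stood at 1.26 (1.06 to 1.495) in spots with few UMIs of adjacent tissue. Choroid plexus genes, 1003 against 1109 UMIs, were carried by a few spots, up to 64296 CPM, and their ratio ran from 0.558 with 100 spots to 1.12 with equal weights. Ependymal genes gave 171 against 217 UMIs, a ratio of 0.823 (0.670 to 1.01), and the epithelium list 82 against 120. Connective tissue stood at 1.005 (0.943 to 1.07) with 300 spots and 1.01 (0.927 to 1.099) with a minimum of 3000 UMIs, and epithelium at 1.04 (0.787 to 1.37) with equal weights. Forebrain genes gave 109 against 107 UMIs and midbrain and hindbrain genes 46 against 63, both with intervals that held 1. The midbrain and hindbrain ratio of 0.763 (0.510 to 1.13) became 1.20 (0.831 to 1.72) with a minimum of 3000 UMIs, so its direction was not settled, and its peaks are given with the other peaks.

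Outside all lists, the 8 genes with the highest lower bound were Ptn, Plpp3, Nrbp2, Kif16b, Fkbp1a, Cpe, Dzip1 and Bcl2. Ptn, a secreted growth factor that binds the product of the score gene Ptprz1, gave 382 against 242 UMIs, a ratio of 1.65 (1.40 to 1.95). Plpp3, a lipid phosphatase of astrocytes, gave 119 against 68, a ratio of 1.83 (1.35 to 2.50), and Cpe, a peptide-processing enzyme, 276 against 179, a ratio of 1.61 (1.33 to 1.96). Kif16b, a kinesin, had the largest ratio of the 8 at 2.51 with 36 against 15. Among the 8 with the lowest upper bound were Lmtk2, Ube2g2, Casq2, Dctn6, Igfbp4, Srsf3 and Tpm1. Casq2, a calcium store protein of muscle, gave 29 against 65 UMIs, a ratio of 0.466 (0.290 to 0.733), and Tpm1, a tropomyosin, 235 against 376, a ratio of 0.653 (0.552 to 0.771). For Casq2 and Tpm1 these intervals may be too narrow, since the variance of the muscle list was 18.1 times that of counting. Lmtk2, a kinase, gave 20 against 54. These genes are the ends of 5354 ranked ratios, so their sizes are overstated by that choice. The mutated gene itself, Ctcf, gave 42 against 54 UMIs, a ratio of 0.813 (0.530 to 1.24).

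**Figure D4:**
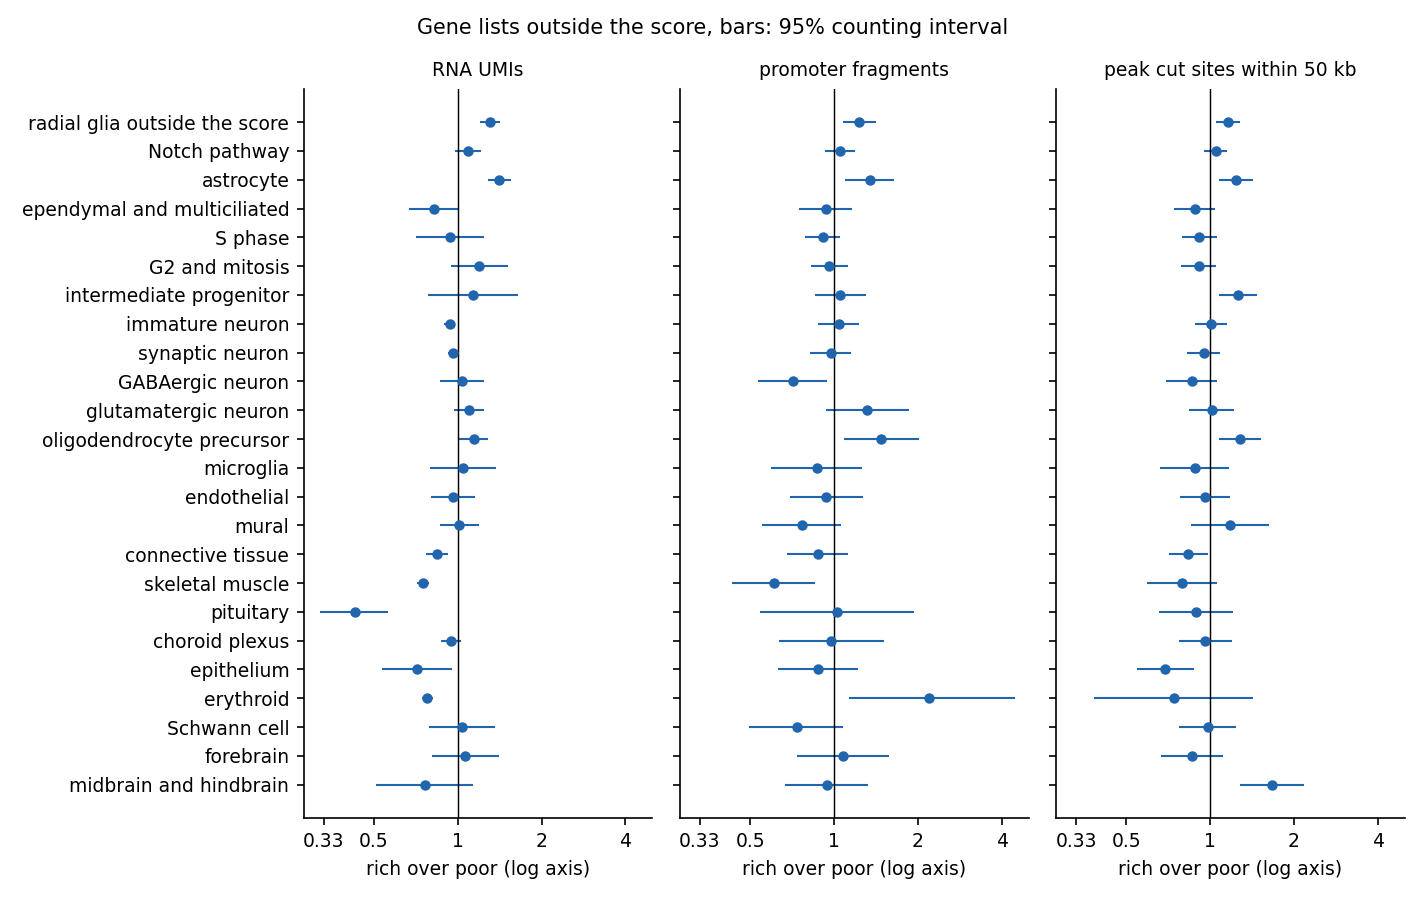
Rich over poor ratio (x axis, log scale) of the 24 gene lists outside the score (y axis) for RNA UMIs, fragments within 1 kb of the TSS and cut sites in peaks within 50 kb; bars are 95% counting intervals, which do not cover the spot to spot spread of tissue lists such as muscle, erythroid and pituitary. Radial glia genes outside the score, astrocyte genes and oligodendrocyte precursor genes have intervals above 1 in each panel.

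Accessibility comes from another library and did not choose the spots. Between the groups as chosen it differed in the direction of the score by a small amount. Accessibility at score gene promoters rose only at the top of the score, as given below. Promoter fragments, counted within 1 kb of each TSS and divided by all such fragments, came to 228 in rich and 186 in poor spots for the 12 score genes, or 549 and 437 per 1000000 (CPM again), a ratio of 1.26 (1.03 to 1.53). The ratio was 1.19 (0.967 to 1.46) without the second segment that held 15 rich spots, and 1.20 (0.948 to 1.51) with a window of 500 bp. It was 1.15 (0.939 to 1.40) with equal weights and 1.09 (0.903 to 1.32) with the other 6 genes as score. Promoters of the score genes that took no part in the choice, read as above for RNA, stood at 1.28 (0.913 to 1.79) for the other 6 genes and 1.18 (0.923 to 1.51) for the markers. Single promoters are sparse. Of 13325 promoters with at least 20 fragments 1412 (10.6%) were at least 1.5 times higher in rich spots and 1419 (10.6%) lower by that fold, which is the background for any single promoter. Of the 10 score gene promoters with at least 20 fragments, 4 were past the fold higher and 1 lower.

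The 4 higher promoters were those of Hes5, Fabp7, Sox9 and Sox2. Hes5 gave 32 against 16 fragments, a ratio of 2.05 (1.09 to 3.997), and Fabp7 22 against 9, a ratio of 2.50 (1.11 to 6.18). Sox9 gave 31 against 17, a ratio of 1.87 (1.002 to 3.597), and Sox2 23 against 14 with an interval that held 1. The promoter of Ednrb was the lower one, with 9 against 16. Vim, whose RNA was near equal when left out of the score, gave 37 against 43 promoter fragments. The abundant RNAs of Ptprz1 and Slc1a3 had no such difference at their promoters, with 18 against 23 and 11 against 11 fragments. Tnc and Ttyh1, also abundant, had none either, with 10 against 10 and 7 against 7, the last below the minimum of 20.

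Promoters of the lists outside the score differed by a similar amount. The radial glia genes outside the score gave 475 against 395 fragments, a ratio of 1.23 (1.08 to 1.41), and 18 of the 20 promoters had a ratio above 1, against 51.2% of all promoters tested. Equal counts give a ratio of 1.02 here, as for Id4, and 12 of the 20 members had an RNA ratio above 1. With the other 6 genes as score the promoter ratio was 1.11 (0.968 to 1.27). Over whole gene bodies with 2 kb upstream the ratio of this list was 0.975. That sum took in the annotated body of Fgfr2, chr7:130162451-133123350, which runs far upstream of the start used here, at 130266191. It may therefore hold many fragments from outside the list's genes, and does not describe their bodies alone. Whether Fgfr2 changed the ratio was not tested. The astrocyte list gave 232 against 177, a ratio of 1.34 (1.099 to 1.64), with 23 against 7 for Apoe. That ratio lay between 1.13 and 1.198, with 1 inside the interval, in spots with few UMIs of adjacent tissue, with equal weights, with the 6 markers and with the other 6 genes as score. Oligodendrocyte precursor promoters gave 105 against 73, a ratio of 1.47 (1.08 to 2.01), with 12 against 4 for Pdgfra and 13 against 6 for Olig2. For this list 1 was inside the interval in most alternatives, also with 100 or 300 spots and a window of 500 bp. S phase promoters gave 360 against 405 and those of G2 and mitosis 331 against 352. Synaptic promoters gave 276 against 290 and those of immature neurons 281 against 277. These 4 intervals held 1 in the groups as chosen. Immature neuron promoters stood at 1.31 (1.11 to 1.56) with a score without Vim, and synaptic promoters at 0.818 (0.7004 to 0.956) in spots with few UMIs of adjacent tissue.

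GABAergic promoters gave 86 against 124 fragments, a ratio of 0.710 (0.533 to 0.943), while their RNA stood at 1.04. Dlx6os1, a non-coding RNA of the interneuron lineage, gave 0 against 7. The ratio was 0.951 (0.716 to 1.26) with the other 6 genes as score and 0.949 (0.834 to 1.08) over gene bodies with 2 kb upstream, and further alternatives, such as a score without Vim, also brought 1 inside the interval. Skeletal muscle promoters gave 57 against 96, a ratio of 0.608 (0.430 to 0.853), on the same side as their RNA, with 1 inside the interval in spots chosen by the 6 markers or with few UMIs of adjacent tissue. Erythroid promoters gave 30 against 14, against the direction of their RNA, and 1 was inside the interval in most alternatives, such as 300 spots or windows of 500 bp and 2 kb. The Ctcf promoter gave 49 against 29 fragments, a ratio of 1.73 (1.07 to 2.84), beside RNA of 42 against 54 UMIs.

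Peaks near the same genes gave a similar picture. This is partly built in, since peaks over start sites hold fragments that the promoter windows counted as well. A peak was assigned to the coding gene with the nearest TSS, up to 50 kb away, and its value is the number of transposase cut sites in it. Of the peak entries above 0, 79.0% were exactly 2, so both ends of 1 fragment were counted and intervals were computed on counts divided by 2. The 74 peaks of the score genes held 1100 cut sites in rich and 888 in poor spots, or 971 and 773 CPM, a ratio of 1.26 (1.11 to 1.43), which became 1.09 (0.958 to 1.23) with the other 6 genes as score. Peaks of radial glia genes outside the score stood at 1.16 (1.05 to 1.28) and those of astrocyte genes at 1.24 (1.08 to 1.43), which became 1.08 (0.991 to 1.19) within 100 kb and 1.14 (0.987 to 1.31) with the 6 markers, in that order. Of 32448 peaks with at least 20 cut sites, 7098 (21.9%) were past 1.5-fold higher and 6176 (19.0%) lower. Of the 38 such peaks near score genes, 19 were higher and 4 lower, against 13 and 7 of 48 for radial glia genes outside the score and 9 and 2 of 27 for astrocyte genes.

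Near score genes, the peaks with the highest lower bounds were at Ttyh1 and Hes5, whose sequences are given above. They are the ends of a ranking of 38 peaks, so their sizes are overstated by that choice. Intervals above 1 were also found for a second Ttyh1 peak, with 75 against 39 cut sites, and for a peak 35992 bp downstream of the Sox9 start, with 21 against 5. Among the other lists, a peak 20656 bp downstream of the Phgdh start held 36 against 6 cut sites, a ratio of 6.08 (1.77 to 32.2), and one 15467 bp upstream of Aldh1l1, a folate enzyme of astrocytes, 40 against 11, a ratio of 3.68 (1.39 to 11.8). A peak 48041 bp downstream of the start of Ddah1, a radial glia gene outside the score, went the other way. It held 2 against 18, a ratio of 0.113 (0.00257 to 0.812). The peak 12367 bp upstream of Hes5, at chr4:154948120-154948993, held 44 cut sites in 23 rich spots against 13 in 7 poor spots, a ratio of 3.43 (1.38 to 9.88). The peak over the Hes5 start, at chr4:154960371-154961260, held 43 against 16, a ratio of 2.72 (1.16 to 7.09). The intronic Ttyh1 peak, at chr7:4123645-4124026, held 38 cut sites in 22 rich spots against 9 in 7 poor spots, a ratio of 4.28 (1.49 to 15.8). Summed over its peaks, Ttyh1 held 113 against 48, a ratio of 2.39 (1.46 to 4.02), Pax6 113 against 63, a ratio of 1.82 (1.16 to 2.91), Hes5 138 against 82, a ratio of 1.71 (1.14 to 2.57), and Sox9 143 against 90, a ratio of 1.61 (1.09 to 2.39). Vim peaks held 61 against 91, and peaks of Hes1, Ptprz1, Tnc and Ednrb stood at ratios of 0.937, 0.924, 0.800 and 0.778. Each of these had 1 inside its interval. The Hes1 peak 4658 bp upstream of its start went the other way from the higher peaks at Hes5 and Ttyh1, with 1 cut site in rich and 20 in 10 poor spots, a ratio whose interval ends at 0.586. Outside the score, Psat1 and Phgdh, both enzymes of serine synthesis, held 92 against 43 and 61 against 29, Mfge8 99 against 53 and Apoe 56 against 24, each with an interval above 1. Other members of these lists went the other way, such as Aqp4 with 36 against 62, Ddah1 with 115 against 133 and Nes with 83 against 96. The intervals of these held 1.

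Other lists differed in peaks too. Peaks of intermediate progenitor genes stood at 1.26 (1.07 to 1.48) and those of oligodendrocyte precursor genes at 1.28 (1.08 to 1.53). Those of midbrain and hindbrain genes stood at 1.67 (1.28 to 2.18), with 311 against 189 cut sites, and at 1.21 (0.945 to 1.55) with the other 6 genes as score, while their promoters gave 68 against 74 fragments and their RNA 46 against 63 UMIs. Synaptic, immature neuron, S phase and G2 and mitosis peaks stood at 0.947, 1.01, 0.915 and 0.910, with intervals that held 1, and epithelium peaks at 0.690 (0.545 to 0.872). Epithelium peaks stood at 0.918 (0.783 to 1.08) with 300 spots, 0.978 (0.775 to 1.24) in spots with few UMIs of adjacent tissue and 0.935 (0.742 to 1.18) with the other 6 genes as score. Peaks of immature neuron genes stood at 1.21 (1.06 to 1.38) with a score without Vim and 1.16 (1.02 to 1.33) with the other 6 genes. For intermediate progenitor peaks 1 was inside the interval in spots chosen by the 6 markers.

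Among all promoters the 6 with the highest lower bound were Lockd, Gm49150, Entpd2, Nle1, Gm9748 and 4930428N03Rik. Entpd2, an ectonucleotidase of neural progenitors, gave 26 against 6 fragments, a ratio of 4.44 (1.79 to 13.2), with 2 against 5 UMIs of RNA. The window of Gm49150, 34 against 9 fragments, overlaps those of Socs4 and Wdhd1, and that of Gm9748, 29 against 8, overlaps that of the protocadherin Pcdh8. The 6 with the lowest upper bound were Utrn, 9630002D21Rik, Arap1, Naca, Fads6 and Fam43a, led by Utrn with 3 against 17 fragments and 57 against 52 UMIs of RNA. The peak with the highest lower bound, at chr8:34613783-34614648, held 32 cut sites in 15 rich spots and 0 in poor spots, a ratio whose interval starts at 3.91. The nearest coding gene, Dusp4, a phosphatase of MAP kinases, starts 193082 bp away. All of these are the ends of long rankings and share the overstatement named above for RNA.

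Over the whole range of the score most of the difference lay at its top. When the 1832 spots were put in 10 equal groups by score, score gene RNA climbed steadily from 378 to 2634 CPM, as the ranking requires. The promoter share of the score genes was 391 to 496 CPM in the lower 9 groups, without order, and 559 (497 to 626) in the highest. Peaks of the score genes showed 701 to 790 CPM in the lower 9 and 919 in the highest. RNA of radial glia genes outside the score stood between 1618 and 1875 in the lower 9 groups and at 2138 in the highest, and their promoters between 914 and 986 against 1157. Their peaks were the exception, with a more gradual course from 1220 in the fifth group to 1382 in the ninth and 1485 in the highest. Astrocyte RNA was 1170 to 1305 in the lower 8 groups, 1430 in the ninth and 1642 in the highest. The lowest group was near the middle ones for each of these lists outside the score RNA. Over the 1832 spots Spearman's rho between the score and the promoter share of the score genes was 0.0452, that with their peaks 0.0762, that with astrocyte RNA 0.144 and that with RNA of radial glia genes outside the score 0.0567, all weak and given as a description of sparse counts that share spots and depth.

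**Figure D5:**
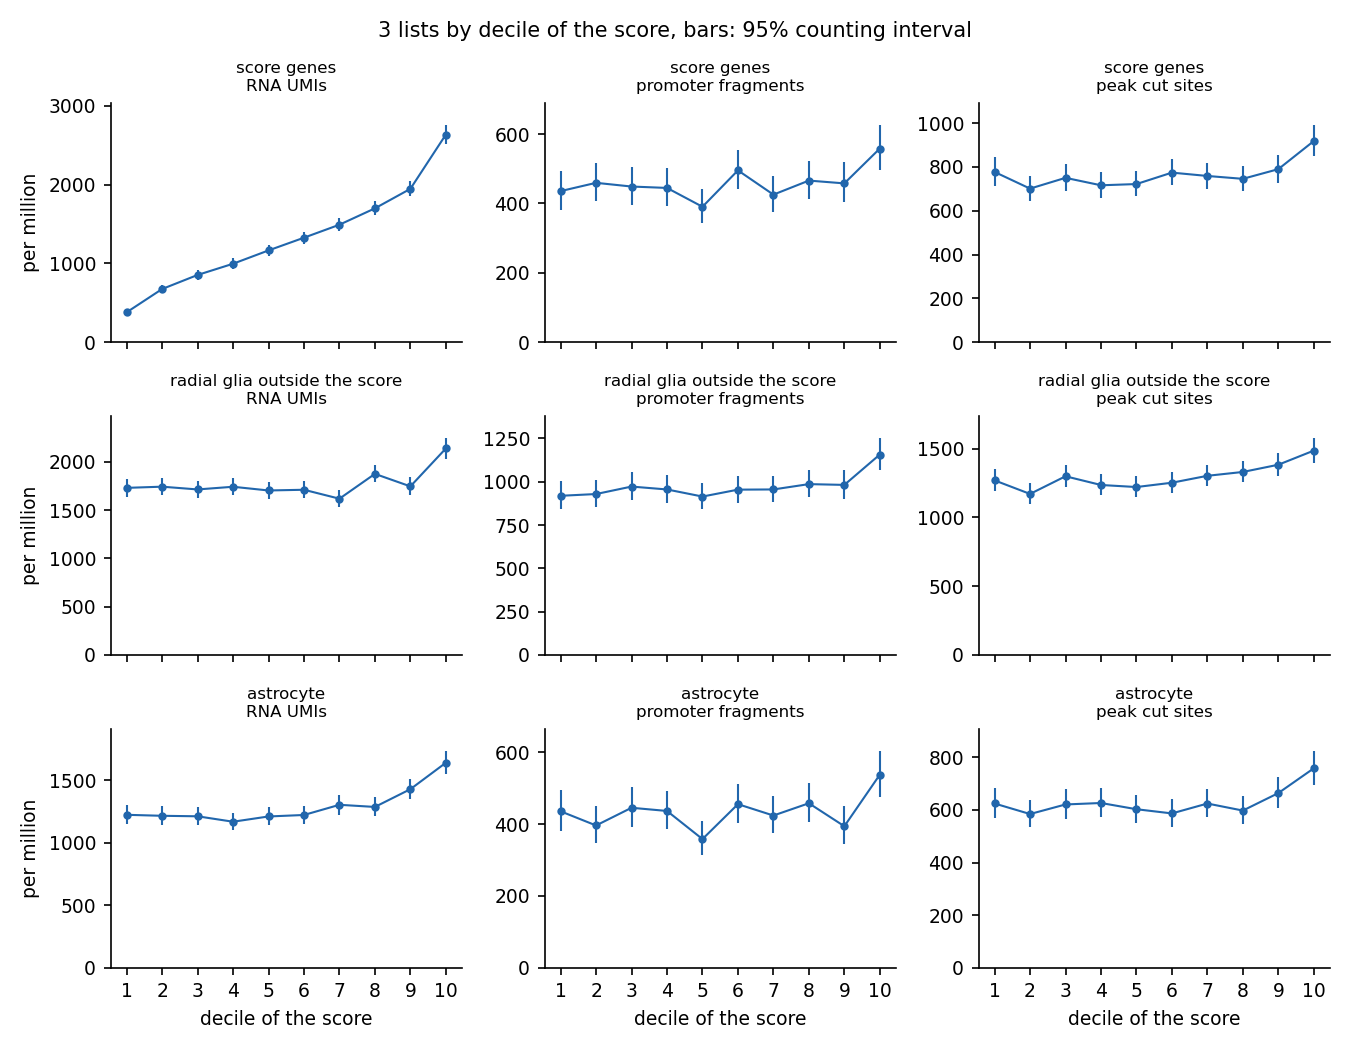
RNA UMIs, promoter fragments and peak cut sites in CPM, each per 1000000 counts of its kind (y axes) of score genes, radial glia genes outside the score and astrocyte genes by decile of the score (x axes, 183 or 184 spots each); bars are 95% counting intervals. Except for score gene RNA, which the ranking fixes, values change little over most deciles and are highest in decile 10, such as 559 for score gene promoters, with a more gradual course for peaks of radial glia genes outside the score.

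As a check of the label, rich spots held more RNA of radial glia and astrocyte genes outside the score than poor spots, and more accessibility at their promoters and peaks, by ratios of 1.16 to 1.41 in the groups as chosen. Oligodendrocyte precursor genes were higher too, at 1.14 for RNA, 1.47 for promoters and 1.28 for peaks. Their RNA and promoter intervals held 1 in most alternatives. Peaks of midbrain and hindbrain genes, at 1.67, and of intermediate progenitor genes, at 1.26, were higher as well. The rise in accessibility was thus not particular to radial glia and astrocyte genes. Promoters and peaks share fragments near start sites, so they are not independent of each other. Astrocyte RNA stood at 1.41 (1.28 to 1.55) and RNA of radial glia genes outside the score at 1.30 (1.20 to 1.41). These intervals overlap, and Apoe made up much of the astrocyte list, so the lists were not ranked. Radial glia members such as Nes, Id4 and Fgfr2 stood near 1, and so did the astrocyte gene Slc1a2. These lists therefore do not tell radial glia from astrocytes. The RNA intervals of the radial glia and astrocyte lists lay above 1 in every alternative that gave one, and those of promoters and peaks held 1 in the alternatives named above. No alternative changed the members of a list. Among radial glia genes outside the score with at least 50 UMIs, only Dbi, Mfge8, Phgdh and Aldoc were past the fold. Poor spots stood close to the eligible spots as a whole in that RNA, at 1711 against 1767 CPM for radial glia genes outside the score and 1204 against 1285 for astrocyte genes. The names rich and poor therefore describe the score, and the spots of both groups held neuronal, vascular and adjacent tissue RNA. More cells of a type and more RNA per cell cannot be told apart in such spots.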

How the data were processed

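SPARC-seq libraries of RNA and chromatin accessibility from 1 E18.5 brain sample were analysed. Per the file headers, the authors used cellranger-arc 2.0.1 with an mm10 (GRCm38) reference, and the labels also name Seurat 4.0. The deposited matrix holds raw counts, UMIs for 32285 genes and cut sites for 91223 peaks, and the deposited fragments are de-duplicated and not normalised.

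Groups, list ratios and intervals (exact Poisson and conditional binomial, 95%) were computed with Python 3.11.15, NumPy 2.4.6 and SciPy 1.17.1. Counts were summed over the 150 spots and divided by the group's total UMIs (588050 and 614399), promoter fragments (415357 and 425345) or peak cut sites. The TSS was the most upstream start of principal transcripts in GENCODE M21, or of basic or all transcripts where a gene had none. A fragment near several starts was counted for each. A feature was past the fold at 1.5 with at least 50 UMIs, 20 fragments or 20 cut sites. Named genes were the score genes, the 3 most counted per list, and those with extreme interval bounds (8, 6 and 6 each way for RNA, promoters and peaks), without chromosome 18, mitochondrial and ribosomal RNA genes; further list members were named after their values were seen. The members, lists and rules were chosen with earlier results of these data known. Spots are not replicates, so no test was run. Ratios and the choice of spots were tested on simulated counts with counting error only and a planted group of much higher score. That does not cover the real spots, whose scores were continuous and whose lists could vary beyond counting. Some genes picked by the rule for named genes are not reported here.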

Additional observations from a re-analysis of the deposited data

How the results depend on the processing

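Other numbers of spots, UMI minimums, scores, denominators, windows and distances were tried, and a value counted as unmoved inside its main counting interval. Of 1002 values 926 stayed inside and 63 left it, and 13 lay on the other side of 1 from a main interval that did not hold 1. The 20 headline results were less stable, with 168 of their 197 values inside, 24 outside and 5 on the other side of 1. Values whose main interval held 1 could cross 1 without being among the 13. Radial glia RNA outside the score left its interval at 100 spots (1.45), 300 spots (1.16), with the other 6 genes as score (1.19) and without the second segment with most rich spots (1.19), all above 1. Immature neuron RNA stood at 1.02 without Vim in the score and at 1.01 with the other 6 genes, and stood at 0.887 in spots with few UMIs of adjacent tissue. Skeletal muscle RNA stood at 0.832 with 300 spots, 0.804 with 3000 UMIs, 0.646 without Vim, 0.793 with equal weights, 0.977 with the 6 markers, 0.838 with the other 6 genes and 1.04 in spots with few UMIs of adjacent tissue. That choice limits the UMIs of the tissue lists themselves, so their values there, with pituitary genes at 1.19, epithelium at 1.14, erythroid genes at 1.02 and connective tissue at 1.06, all with 1 inside the interval, say nothing of their direction; connective tissue stood at 1.005 with 300 spots and 1.01 with 3000 UMIs, its peaks at 1.05 with the 6 markers, and epithelium at 1.04 with equal weights. The gene body with 2 kb upstream turned promoters of radial glia genes outside the score to 0.975 and of oligodendrocyte precursor genes to 0.963. The first of these values includes the very long annotated body of Fgfr2 named above. Peaks of radial glia genes outside the score stood at 1.29 in spots with few UMIs of adjacent tissue, those of score genes at 1.09 and of astrocyte genes at 1.44 with the other 6 genes. The causes were not tested.

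The shares of features past the fold depend on the minimum. RNA stood at 8.19% higher and 7.81% lower with 20 UMIs, 0.723% and 0.362% with 200, and 0.168% and 0.299% at a fold of 2. With 50 counts promoters stood at 5.26% and 5.03% and peaks at 12.5% and 9.70%. The choices of the other 6 genes, of leaving out a segment, of leaving out each score gene, of dividing peak counts by 2 and of running the spot alternatives on peaks were made after seeing the data. Both assays were read in the same spots, but no test over replicates was possible because each assay had 1 library. Cycling genes, Notch ligands and single promoters rest on few counts.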
